A study of Mus musculus with 12 samples.

Results

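The D cyclins, their partner kinases CDK4 and CDK6 and inhibitors of these kinases were followed in B16-OVA, a melanoma line of the mouse that was made to express ovalbumin as a model antigen and was grown in culture. The set holds 10 genes (Ccnd1, Ccnd2, Ccnd3, Cdk4, Cdk6, Cdkn1a, Cdkn1b, Cdkn2b, Cdkn2c and Cdkn2d) of 18193 genes with a probe set of their own. Their members were all 26 of 45037 probe sets that the annotation of the Affymetrix Mouse Genome 430 2.0 array pairs with a member gene alone. This rule uses no measured value, but the genes were chosen with earlier results of these data known. A probe set is a group of short probes meant to read 1 transcript or transcript end, and whether its probes also match other transcripts was not checked. Cells received DMSO, the solvent, or the MEK inhibitor (MEKi) GDC-0623 at 100 nM, and RNA was taken 24 h or 72 h later, which gave 4 groups of 3 arrays: DMSO 24 h, MEKi 24 h, DMSO 72 h and MEKi 72 h. All groups are of the same line, and all were grown as a monolayer without other cells of a tumor. Replicates are named biological in the series text, which does not state that each was its own culture, so p-values here speak of the spread among these samples, part of which may be technical. Since RNA was taken in bulk, a lower signal from fewer cells that use a gene and from less RNA per cell cannot be told apart.

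Cyclins D1, D2 and D3, encoded by Ccnd1, Ccnd2 and Ccnd3, bind and activate CDK4 and CDK6 in the G1 phase of the cell cycle. The active kinases phosphorylate the retinoblastoma protein RB, which then releases E2F factors that drive the genes of DNA replication. Ccnd1 is a textbook target of the RAS-RAF-MEK-ERK cascade, through which growth factors and, in melanoma, oncogenic signals push cells into the cycle. The INK4 proteins p15 (Cdkn2b), p18 (Cdkn2c) and p19 (Cdkn2d) bind CDK4 and CDK6 and keep the D cyclins off, while the CIP/KIP proteins p21 (Cdkn1a) and p27 (Cdkn1b) bind complexes of cyclin and kinase and block CDK2 above all.

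Values are log2 signals after RMA normalization, on which a difference of 1 is a factor of 2. All 12 arrays had a similar centre, with array medians between 5.31 and 5.42, and their number limits the precision. The label of the cells held in the data: 7 of 7 markers of the melanocyte lineage measured lay at percentiles 98.3 to 100 of all probe sets, whereas 1 of 4 leukocyte, 1 of 3 endothelial, 0 of 3 fibroblast and 1 of 4 epithelial markers lay above the median probe set. Of the 26 member probe sets 23 lay above that median (5.36), and those of Cdkn2b, a Ccnd3 and a Cdk6 probe set lay below it. Where a gene had several probe sets, the leading one is that with the highest mean over the 12 arrays.

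MEKi at 24 h lowered Ccnd1 and Cdk6 at all 3 probe sets of each gene, and Ccnd3 at its leading probe set only. At 72 h the difference from DMSO passed the test only at 2 of the 3 Cdk4 probe sets, without the leading one. No leading probe set of a member passed at 72 h, against 5.14% of all genes called lower and 4.03% called higher. Of the 26 member probe sets 7 were lower at 24 h (limma with Benjamini-Hochberg adjustment, adjusted p at most 0.05), against 4.61% of all 45037 probe sets. None was higher, against 3.83% of all probe sets, although 2 had an unadjusted p under 0.05 (a Ccnd2 probe set and Cdkn2c) and these 2 also passed with a trended and robust prior in limma. The count of 7 fell to 4 without DMSO 24 h replicate 1 or without MEKi 24 h replicate 1. These 7 probe sets belong to 3 genes, so they are not separate results. By leading probe sets, 3 of the 10 genes were lower, against 5.86% of all genes. The share of 4.61% includes dim probe sets, whereas 23 of the 26 members lie above the median signal. In a fit of probe sets above the median mean only, 8 of 23 members were called (6 lower, 2 higher), and 6403 such probe sets in all. The fit of all 45037 called 3801, so the share called is higher among bright probe sets, and 4.61% is a low reference for these members. At 72 h, 2 member probe sets were lower, against 4.25% of all probe sets, and 0 were higher, against 2.99%. At an unadjusted p under 0.05 in limma, 7 were lower and 0 higher. Among probe sets above the median mean only, 4 of 23 members were called, all lower, and 4268 such probe sets in all. The count of 2 at 72 h ranged from 0 to 4 when a library was left out. It was 0 without DMSO 72 h replicate 1, MEKi 72 h replicate 1 or MEKi 72 h replicate 2. It was 1 without DMSO 72 h replicate 2, and 4 without DMSO 72 h replicate 3. The median difference over the 26 probe sets was -0.03 at 24 h (0.01 over all probe sets) and -0.19 at 72 h (0.01 over all). The MEKi comparisons and those over time share arrays, so that a low or high array enters several of them.

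**Figure D1:**
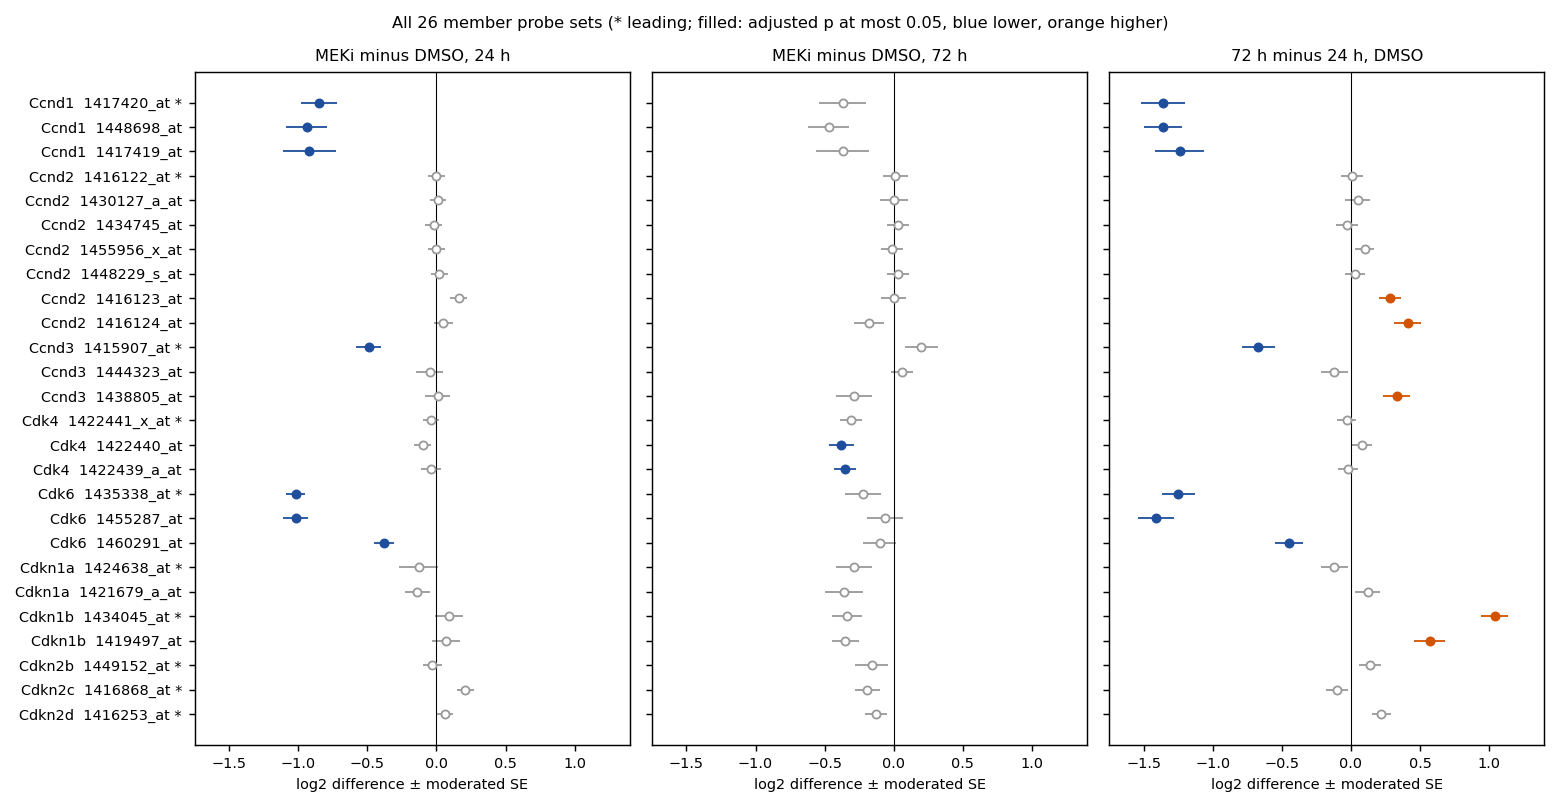
Log2 difference with its moderated SE (x axis) of all 26 member probe sets (y axis, the leading probe set of each gene starred) for the MEKi effect at 24 h, the MEKi effect at 72 h and the change over time in DMSO. Filled points passed the test (blue lower, orange higher). The 7 filled points at 24 h belong to Ccnd1, Ccnd3 and Cdk6 and the 2 at 72 h to Cdk4, while over time in DMSO 7 were lower and 5 higher.

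Among the D cyclins, Ccnd1 had the largest difference under MEKi. Its leading probe set (1417420_at) read 11.52, 11.63 and 11.61 in DMSO 24 h, 10.69, 10.46 and 11.05 in MEKi 24 h, 10.43, 10.45 and 9.80 in DMSO 72 h, and 9.82, 10.03 and 9.72 in MEKi 72 h. The 3 untreated arrays of 24 h thus lay close together above all others, the MEKi arrays of 24 h came next, and at 72 h DMSO and MEKi overlapped because DMSO 72 h replicate 3 lay below its fellow replicates. At 24 h MEKi lowered this probe set by 0.85 on the log2 scale, or 1.81-fold (log2 difference -0.85 ± 0.13, moderated SE, n = 3 against 3, adjusted p from limma = 0.00931). The other Ccnd1 probe sets gave -0.94 ± 0.15 (1448698_at, adjusted p = 0.00943 in limma) and -0.92 ± 0.19 (1417419_at, adjusted p = 0.0234 in limma). When any 1 of the 6 arrays was left out, 1417420_at and 1448698_at stayed past the threshold (highest adjusted p 0.0474 and 0.049), whereas 1417419_at did so only without MEKi 24 h replicate 2 or 3 and reached 0.0855 without MEKi 24 h replicate 1 and between 0.0713 and 0.0716 without a DMSO array.

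At 72 h the 3 Ccnd1 probe sets differed by -0.37, -0.47 and -0.37 between MEKi and DMSO, with SEs of 0.17, 0.15 and 0.19, and none passed the test (adjusted p from limma 0.249, 0.0909 and 0.314). A single control array bears on this: without DMSO 72 h replicate 3 all 3 were called lower, at -0.58, -0.65 and -0.61 (adjusted p = 0.0208, 0.00885 and 0.026 in limma). In DMSO, Ccnd1 itself fell between 24 h and 72 h, by 1.36 on the log2 scale at the leading probe set (2.57-fold, SE 0.16, adjusted p = 0.000522 in limma) and by 1.36 and 1.24 at the other probe sets. In MEKi it fell by 0.88, 0.89 and 0.69 (adjusted p from limma 0.00178, 0.0019 and 0.0264). The last of these calls, of 1417419_at, ended without MEKi 24 h replicate 1 or 3 or MEKi 72 h replicate 1 or 3 (adjusted p 0.052 to 0.092), and its difference was -0.46 without MEKi 24 h replicate 3. The lower level in MEKi at 24 h was followed by a further decline, and the order of the group means was DMSO 24 h, MEKi 24 h, DMSO 72 h and MEKi 72 h at each of the 3 probe sets. DMSO 24 h overlapped with no other group. At the leading probe set the last neighbours overlapped, at 1448698_at MEKi 24 h overlapped with DMSO 72 h, and at 1417419_at both of these pairs did. The difference of the MEKi effects, 72 h minus 24 h, was 0.48 ± 0.24 (95% interval -0.03 to 0.99) for the leading probe set and did not pass the test (adjusted p = 0.351 in limma on all 12 arrays).

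**Figure D2:**
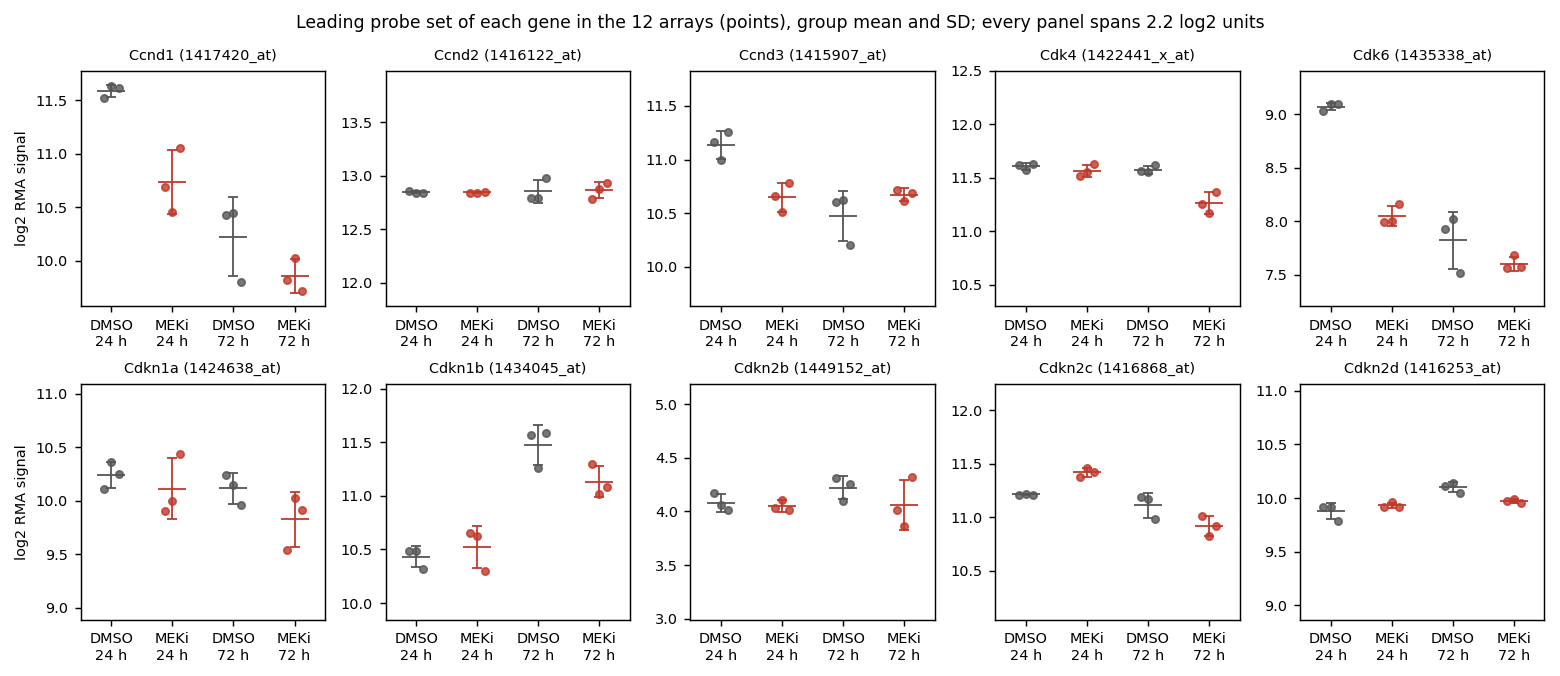
Log2 RMA signal (y axis, each panel spanning the same number of log2 units) of the leading probe set of each of the 10 genes in the 4 groups (x axis), with points for arrays and lines for group means ± SD (n = 3). The DMSO 24 h arrays of Ccnd1, Ccnd3 and Cdk6 lie above the other 9 arrays, the MEKi 72 h arrays of Cdk4 below them, and the 72 h arrays of Cdkn1b above its 24 h arrays.

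Ccnd3, which encodes the D cyclin known best from lymphocytes and muscle, was read by 3 probe sets that did not follow each other. The leading one (1415907_at) read 11.16, 11.00 and 11.26 in DMSO 24 h, 10.66, 10.51 and 10.78 in MEKi 24 h, 10.60, 10.62 and 10.20 in DMSO 72 h, and 10.72, 10.61 and 10.69 in MEKi 72 h. All arrays other than the untreated ones of 24 h lay in a common range below these. MEKi lowered it at 24 h by 0.49 on the log2 scale (1.4-fold, SE 0.09, adjusted p = 0.0181 in limma), and at 72 h the difference was 0.20 ± 0.12 and did not pass (adjusted p = 0.394). The call at 24 h ended without DMSO 24 h replicate 1 or 3 and without MEKi 24 h replicate 1 or 2, with adjusted p between 0.0655 and 0.0706.

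The 2 dimmer Ccnd3 probe sets gave -0.05 ± 0.10 (1444323_at) and 0.01 ± 0.09 (1438805_at) at 24 h. The latter lies below the median probe set, at percentile 35.7. Over time in DMSO the leading Ccnd3 probe set fell by 0.67 (adjusted p = 0.00467 in limma) while 1438805_at rose by 0.33 (adjusted p = 0.0368), a call lost when arrays were centred on their median (0.0751), in a fit of all 12 arrays (0.0521) and without any DMSO 24 h array or without DMSO 72 h replicate 2 (0.0617 to 0.109). The mean over the 3 Ccnd3 probe sets was called in neither comparison (-0.18 at 24 h, adjusted p = 0.153, and -0.15 over time, adjusted p = 0.17, both from limma). Correlations between Ccnd3 probe sets over the 12 arrays ran from -0.30 to 0.39, against 0.98 to 0.99 between those of Ccnd1, so the Ccnd3 calls rest on the leading probe set.

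Ccnd2, the cyclin D2 gene, had the brightest probe sets among the members' 26, with 5 of its 7 at percentiles 98 to 99.1 of the array, and did not pass the test under MEKi at either time. Its leading probe set (1416122_at) read 12.86, 12.84 and 12.84 in DMSO 24 h, 12.84, 12.84 and 12.85 in MEKi 24 h, 12.79, 12.79 and 12.98 in DMSO 72 h, and 12.78, 12.88 and 12.93 in MEKi 72 h. All 4 groups overlapped. The 95% interval of the MEKi difference of this probe set ran from -0.13 to 0.13 at 24 h and from -0.19 to 0.21 at 72 h, neither of which reaches the Ccnd1 difference of -0.85 at 24 h.

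The 2 dimmest Ccnd2 probe sets behaved differently over time. In DMSO, 1416124_at read 8.96, 8.91 and 8.99 at 24 h and 9.35, 9.19 and 9.54 at 72 h, with no overlap, a rise of 0.41 ± 0.10 (adjusted p = 0.0139 in limma, and 0.0526 without DMSO 24 h replicate 2). Its neighbour 1416123_at rose by 0.28 ± 0.08 (adjusted p = 0.0314 in limma). That call held only without DMSO 72 h replicate 2 and otherwise ended when an array was left out (adjusted p between 0.0712 and 0.0981), and it was also lost with centred arrays (0.0929). The other 5 differed by -0.03 to 0.10. Ccnd2 probe sets correlated with each other at 0.04 to 0.84 over the 12 arrays. Under MEKi at 24 h, 1416123_at was at 0.16 ± 0.06, did not overlap with DMSO 24 h and did not pass (adjusted p = 0.146 in limma). It passed among brighter probe sets (0.0419) and with a trended and robust prior (0.0488).

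Of the 2 kinase genes, Cdk6 had the largest MEKi difference at 24 h among the 26 member probe sets, and 2 of the 3 Cdk4 probe sets passed the test at 72 h. Both promoters hold the E-box CACGTG, the hexamer bound by MYC and related factors. Myc was lower under MEKi at both times (values below). At 24 h Myc, the leading Cdk4 probe set and the leading Cdk6 probe set were at -0.84, -0.04 and -1.02. At 72 h they were at -1.52, -0.31 and -0.22. Over time in DMSO they were at -0.82, -0.03 and -1.25. A link of Myc to either kinase gene was not tested. Promoter sequences of both genes are shown as a description. They are the 250 bases before the RefSeq start on mouse build GRCm38.p6, 5′ to 3′, with the E-boxes in capitals. Cdk4 lies on chromosome 10 (chr10:127063285-127063534, plus strand) and Cdk6 on chromosome 5 (chr5:3343643-3343892, plus strand).
Cdk4: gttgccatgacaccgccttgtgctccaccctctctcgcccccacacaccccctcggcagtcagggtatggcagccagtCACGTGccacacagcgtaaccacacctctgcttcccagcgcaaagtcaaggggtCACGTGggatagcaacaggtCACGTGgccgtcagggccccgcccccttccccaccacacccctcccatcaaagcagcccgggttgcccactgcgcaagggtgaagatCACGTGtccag
Cdk6: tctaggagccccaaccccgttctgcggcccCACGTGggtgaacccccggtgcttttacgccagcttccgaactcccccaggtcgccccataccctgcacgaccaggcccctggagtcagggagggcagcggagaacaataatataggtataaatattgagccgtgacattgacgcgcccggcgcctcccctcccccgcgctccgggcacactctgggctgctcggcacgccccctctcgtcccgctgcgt
The Cdk4 window holds 4 E-boxes, whose first bases lie at -172, -118, -98 and -11 relative to the start, and the Cdk6 window 1, at -220. The hexamer reads the same on both strands. At least 1 E-box occurs in 6.02% of 32851 RefSeq promoter windows of this length, and at least 4 in 0.0213%. Sequences were at hand for 8 member genes in 11 windows (all but Ccnd1 and Ccnd2), and the other 9 windows held no E-box. The AP-1 motif TGANTCA, bound by FOS and JUN proteins, was in none of the 11 on either strand (6.75% of all windows). The ETS core CCGGAA was in 1 window of Ccnd3 (12% of all windows), again counted on both strands. The GC box GGGCGG was in at least 1 window of Ccnd3, Cdk4, Cdkn1a, Cdkn1b, Cdkn2c and Cdkn2d, but not of Cdk6 or Cdkn2b. It was in 32.7% of all windows, a share per single window, whereas Ccnd3, Cdkn1a and Cdkn2c had more than 1 window each. Cdkn1a and Cdkn2c held it in only 1 of theirs. A match of letters is a description and shows no binding.

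Cdk6 encodes the kinase that partners D cyclins beside CDK4. Its leading probe set (1435338_at) read 9.03, 9.09 and 9.09 in DMSO 24 h, 7.99, 8.00 and 8.16 in MEKi 24 h, 7.93, 8.02 and 7.52 in DMSO 72 h, and 7.56, 7.68 and 7.57 in MEKi 72 h. The untreated 24 h arrays stood alone above all others, and MEKi 24 h overlapped with DMSO 72 h. MEKi at 24 h lowered it by 1.02 on the log2 scale (2.03-fold, SE 0.07, adjusted p = 0.000813 in limma), and no array of the 6 decided the call (adjusted p up to 0.00925). The second probe set, 1455287_at, also fell by 1.02 (SE 0.09, adjusted p = 0.00155 in limma). The dimmest, 1460291_at, at percentile 47.2 of the array, fell by 0.38 (SE 0.07, adjusted p = 0.0132 in limma), a call that ended without DMSO 24 h replicate 1 or 2 or MEKi 24 h replicate 1 (0.0539, 0.0517 and 0.0629).

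At 72 h the Cdk6 differences were -0.22 ± 0.13, -0.06 ± 0.13 and -0.10 ± 0.12, none past the threshold (adjusted p from limma 0.383, 0.864 and 0.726), and the DMSO and MEKi arrays overlapped. Without DMSO 72 h replicate 3, the lowest DMSO array for Cdk6 as for Ccnd1, the leading probe set was at -0.37 and just past the threshold (adjusted p = 0.0498 in limma). Over time in DMSO, Cdk6 fell by 1.25, 1.41 and 0.45 (adjusted p from limma 0.000254, 0.000213 and 0.00932), and in MEKi the 2 brighter probe sets fell by 0.45 each (0.00314 and 0.0081). The Cdk6 levels of untreated cells at 72 h thus overlapped with those of treated cells of either time.

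Cdk4 encodes the other partner kinase of the D cyclins and was lower under MEKi at 72 h. Its leading probe set (1422441_x_at) read 11.62, 11.57 and 11.63 in DMSO 24 h, 11.52, 11.55 and 11.63 in MEKi 24 h, 11.56, 11.55 and 11.62 in DMSO 72 h, and 11.26, 11.17 and 11.37 in MEKi 72 h. The 9 arrays of the first 3 groups shared a narrow range, and the MEKi 72 h arrays lay below all of them. At 72 h MEKi lowered 1422440_at by 0.38 (1.3-fold, SE 0.09, adjusted p = 0.0283 in limma) and 1422439_a_at by 0.35 (1.27-fold, SE 0.08, adjusted p = 0.0299). The leading probe set, at -0.31 ± 0.08, did not pass (adjusted p = 0.0572 in limma), but it did with arrays centred on their median (0.0397) and in a fit of all 12 arrays (0.00969), and so did the mean over the 3 probe sets (-0.35, adjusted p = 0.0163). Both calls held without MEKi 72 h replicate 3 and ended without any other array: adjusted p was then 0.0687 to 0.128 for 1422440_at and 0.0636 to 0.136 for 1422439_a_at, while the differences stayed between -0.44 and -0.31.

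At 24 h the Cdk4 differences were -0.04, -0.10 and -0.04, and none passed. In DMSO the gene did not pass over time (-0.03, 0.08 and -0.02), and in MEKi 1422441_x_at fell by 0.30 and 1422439_a_at by 0.34 (adjusted p = 0.0225 and 0.0132 in limma). The call of 1422441_x_at was lost without MEKi 24 h replicate 2 or 3 or MEKi 72 h replicate 1 or 2 (adjusted p 0.0566 to 0.0774). The difference of the MEKi effects was -0.27, -0.28 and -0.31 and did not pass (adjusted p from limma 0.182, 0.183 and 0.109). For 1422439_a_at it passed among brighter probe sets (0.0374) and with a trended and robust prior (0.0318).

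**Figure D3:**
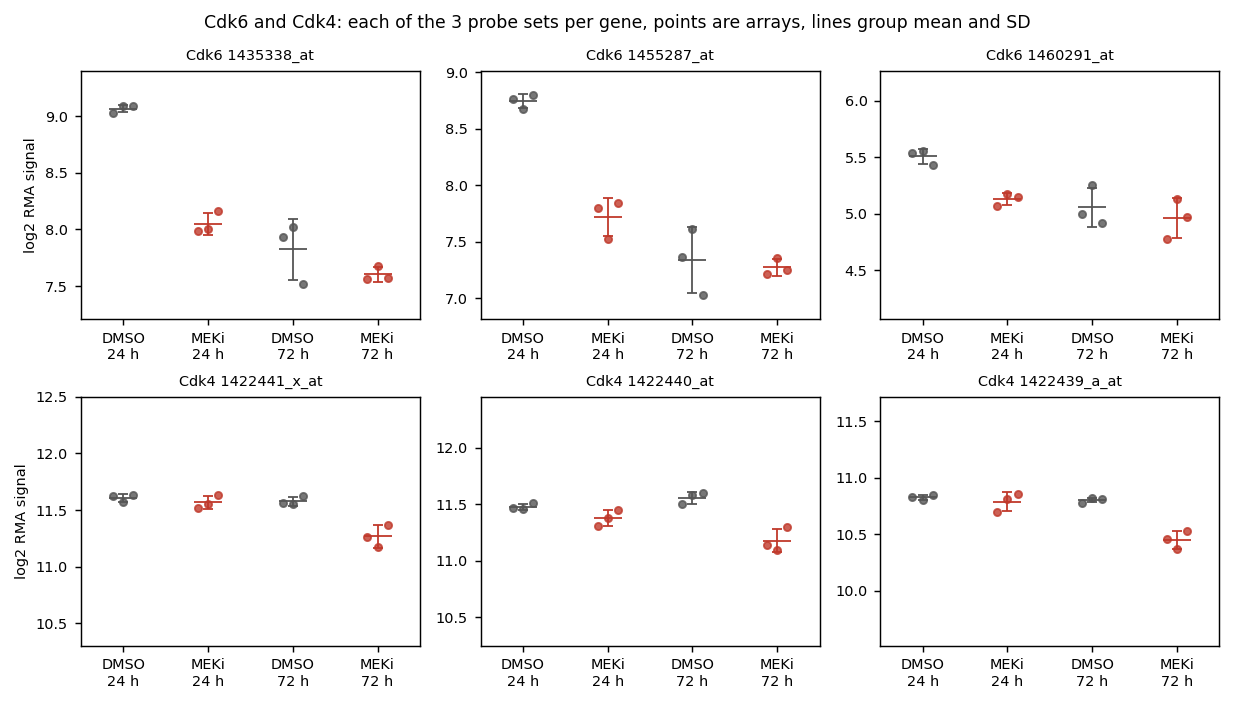
Log2 RMA signal (y axis) of the 3 probe sets each of Cdk6 (top) and Cdk4 (bottom) in the 4 groups (x axis), with points for arrays and lines for group means ± SD (n = 3). In all 3 Cdk6 probe sets the DMSO 24 h arrays are highest, and in all 3 Cdk4 probe sets the MEKi 72 h arrays are lowest.

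Of the CIP/KIP inhibitors, Cdkn1b (p27) differed between the harvest times and neither it nor Cdkn1a (p21) passed the test under MEKi. The leading Cdkn1b probe set (1434045_at) read 10.49, 10.49 and 10.32 in DMSO 24 h, 10.65, 10.63 and 10.30 in MEKi 24 h, 11.57, 11.26 and 11.59 in DMSO 72 h, and 11.30, 11.02 and 11.08 in MEKi 72 h. Every 72 h array lay above every 24 h array, and within each time the treatments overlapped. In DMSO it rose by 1.04 ± 0.10 between the times (2.06-fold, adjusted p = 0.000272 in limma), and the dimmer 1419497_at rose by 0.57 ± 0.11 (adjusted p = 0.00452). In MEKi the leading probe set rose by 0.61 ± 0.11 (1.52-fold, adjusted p = 0.00393 in limma), while 1419497_at was at 0.16 ± 0.09 (adjusted p = 0.24).

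Under MEKi, Cdkn1b differed by 0.09 ± 0.10 and 0.07 ± 0.10 at 24 h (adjusted p = 0.663 and 0.748 in limma) and by -0.34 ± 0.11 and -0.35 ± 0.10 at 72 h (0.119 and 0.0677). At 72 h the mean over its probe sets passed (-0.34, adjusted p = 0.0374 in limma), as did 1419497_at in a fit of all 12 arrays (0.0383) and with centred arrays (0.0478), and 1434045_at without DMSO 72 h replicate 2 (0.0463). Each of these values was below 0, that is lower in MEKi. The differences of the MEKi effects were -0.43 ± 0.16 and -0.42 ± 0.14 and did not pass (0.2 and 0.154).

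Cdkn1a, a target of p53 and of many growth signals, varied more between replicates. Its leading probe set (1424638_at) read 10.11, 10.36 and 10.25 in DMSO 24 h, 9.90, 10.00 and 10.44 in MEKi 24 h, 10.24, 10.15 and 9.96 in DMSO 72 h, and 9.54, 10.03 and 9.91 in MEKi 72 h. All neighbouring groups overlapped. MEKi differed from DMSO by -0.13 ± 0.14 at 24 h (95% interval -0.44 to 0.19) and by -0.29 ± 0.13 at 72 h (-0.58 to 0.00), and 1421679_a_at gave -0.14 ± 0.09 and -0.36 ± 0.14. None of these passed the test (adjusted p from limma 0.652, 0.254, 0.416 and 0.183).

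Among the INK4 genes, Cdkn2c (p18) was the brightest relative to the array, at percentile 95.7, against 89.9 for Cdkn2d and 29.1 for Cdkn2b. Cdkn2c (1416868_at) read 11.21, 11.22 and 11.21 in DMSO 24 h, 11.38, 11.46 and 11.42 in MEKi 24 h, 11.19, 11.17 and 10.98 in DMSO 72 h, and 11.01, 10.83 and 10.92 in MEKi 72 h. The MEKi 24 h arrays lay above all others, and the 72 h groups overlapped. At 24 h the difference of 0.21 ± 0.06 (95% interval 0.07 to 0.34) did not pass over all probe sets (adjusted p = 0.0666 in limma). It passed among probe sets above the median mean (0.0162), with a trended and robust prior (0.00305) and in a fit of 1 value per gene (0.0254). In MEKi, Cdkn2c fell between 24 h and 72 h by 0.50 ± 0.08 (1.41-fold, adjusted p = 0.00133 in limma), also without any 1 array (adjusted p up to 0.00743). In DMSO it was at -0.10 ± 0.08 (0.401). The difference of the MEKi effects was -0.40 ± 0.11 and lay just outside the threshold (adjusted p = 0.0612 in limma, and 0.028 without DMSO 72 h replicate 3).

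Cdkn2d (1416253_at) read 9.92, 9.92 and 9.79 in DMSO 24 h, 9.92, 9.96 and 9.92 in MEKi 24 h, 10.11, 10.14 and 10.05 in DMSO 72 h, and 9.97, 9.99 and 9.95 in MEKi 72 h. The DMSO 72 h arrays lay above the other 9. Neither MEKi comparison passed (0.06 ± 0.06 and -0.13 ± 0.08), nor did time in DMSO (0.22 ± 0.07, adjusted p = 0.0545 in limma), which passed in a fit of all 12 arrays (0.0188). Cdkn2b (1449152_at) read between 3.86 and 4.32 in all 12 arrays, below the median probe set, and its differences of -0.03 ± 0.07 at 24 h and -0.16 ± 0.12 at 72 h did not pass. At such a signal a low or absent transcript cannot be told apart from background.

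Over time without the drug, 12 member probe sets of 5 genes changed: 7 were lower at 72 h (Ccnd1, Cdk6 and Ccnd3, against 14.3% of all probe sets) and 5 higher (Cdkn1b, Ccnd2 and a Ccnd3 probe set, against 11.3%). In MEKi, 8 were lower (Ccnd1, Cdk6, Cdk4 and Cdkn2c, against 13.9% of all probe sets) and 1 was higher (Cdkn1b, against 11.3%). A technical measure moved with time too: the 3′ minus 5′ signal of the spiked Dap transcript was 2.06 ± 0.08 (SD) on the 6 arrays of 24 h and 1.42 ± 0.04 (SD) on the 6 of 72 h (exact two-sided permutation test, p = 0.00216). Its part in the time differences was not tested, and the design does not separate it from time in culture. Between treatments it was 2.03 ± 0.03 and 2.08 ± 0.11 at 24 h and 1.44 ± 0.04 and 1.39 ± 0.05 at 72 h (DMSO and MEKi in turn, SD, n = 3).

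The effect of MEKi itself changed between the times at 2 of the 3 Cdk6 probe sets and at the leading probe set of Ccnd3. In the test of this difference 3 member probe sets were called, all with a higher (less negative) MEKi difference at 72 h, against 1.36% of all probe sets. None was called in the other direction, against 1.66%, although 6 had an unadjusted p under 0.05 and 2 of these (Cdk4 and Cdkn2c) passed with a trended and robust prior in limma. Among probe sets above the median mean only, 5 of 23 members were called (3 higher, 2 lower), and 2301 such probe sets in all. The Cdk6 probe sets 1435338_at and 1455287_at moved by 0.80 ± 0.15 and 0.96 ± 0.18 (adjusted p = 0.0137 and 0.0105 in limma), and remained called without each of the 12 arrays (up to 0.0428 and 0.0336). The dim Cdk6 probe set 1460291_at was at 0.28 ± 0.14 and was not called (0.366). The leading Ccnd3 probe set moved by 0.69 ± 0.16 (adjusted p = 0.0328 in limma), and this call ended without any 1 of 7 arrays, DMSO 24 h replicate 1 or 3, MEKi 24 h replicate 1 or 2 or any of MEKi 72 h (0.0531 to 0.09). The other Ccnd3 probe sets were at 0.11 ± 0.13 (1444323_at) and, with the opposite sign, -0.30 ± 0.17 (1438805_at), and neither was called (0.753 and 0.433). In the 3 called probe sets the DMSO level itself fell by 1.25, 1.41 and 0.67 between the times, so a smaller distance at 72 h came with a lower control level.

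Other genes of the pathway were read by their leading probe sets. Of all 18193 genes 5.86% were lower and 5.01% higher under MEKi at 24 h, and 5.14% were lower and 4.03% higher at 72 h, with a median difference of 0.01 at both times. Among 17 genes of RB, its relatives and the E2F factors, 5 were lower and 0 higher at 24 h (median -0.13), led by E2f3 at -0.63, E2f7 at -0.51, E2f2 at -0.46 and Tfdp1, the E2F dimer partner, at -0.27. At 72 h, 4 were lower, E2f7 at -0.84, E2f8 at -0.73, the RB relative Rbl1 at -0.65 and Lin9 at -0.48, and Lin37 was higher at 0.44 (median -0.14). Lin9 and Lin37 encode parts of the MuvB complex, which represses or activates cell cycle genes depending on its partners. Rb1 itself was at 0.29 ± 0.09 and -0.07 ± 0.12 and passed at neither time.

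Of 10 genes of CDK2 and its activating partners, 4 were lower at 24 h, among them the cyclin E genes Ccne2 at -0.40 and Ccne1 at -0.37 and the phosphatase gene Cdc25a at -0.35, and Cdk2 was higher at 0.30 (median -0.19). At 72 h the cyclin A gene Ccna2 at -0.78 and Ccne2 at -0.54 were lower and none was higher (median -0.19). Of 17 measured genes that degrade or protect D cyclins, p27 and p21, 3 were lower at 24 h (median -0.12): Usp2, whose product removes ubiquitin from cyclin D1, at -0.49, Dtl, which targets p21 for degradation, at -0.44 and Skp2, which targets p27 for degradation, at -0.39. At 72 h Skp2 at -0.66 and Dtl at -0.58 were lower (median -0.02).

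Of 21 measured transcription regulators of D cyclin and inhibitor genes, 5 were lower at 24 h (median -0.09), including the AP-1 genes Fos at -1.44 and Junb at -0.51 and the E-box factor Myc at -0.84, and the p21 activator Klf4 was higher at 0.48. At 72 h Myc at -1.52 and Ezh2, a histone methyltransferase gene, at -0.71 were lower and the AP-1 gene Fosl2 was higher at 0.58 (median -0.05). A reference list of 9 measured proliferation genes had 1 lower at 24 h (Mcm5 at -0.36, median -0.20) and 8 lower at 72 h (median -0.67), with Top2a at -0.80, Aurka at -0.69, Plk1 at -0.68 and Mcm5 at -0.68. Ccnd1, Cdk6 and the leading Ccnd3 probe set were thus called lower at the time at which 1 of these 9 was called. Cdk4, though not its leading probe set, was called at the time at which 8 were. The 9 proliferation genes lay between -0.36 and -0.10 at 24 h, and an order of these changes in time was not tested.

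**Figure D4:**
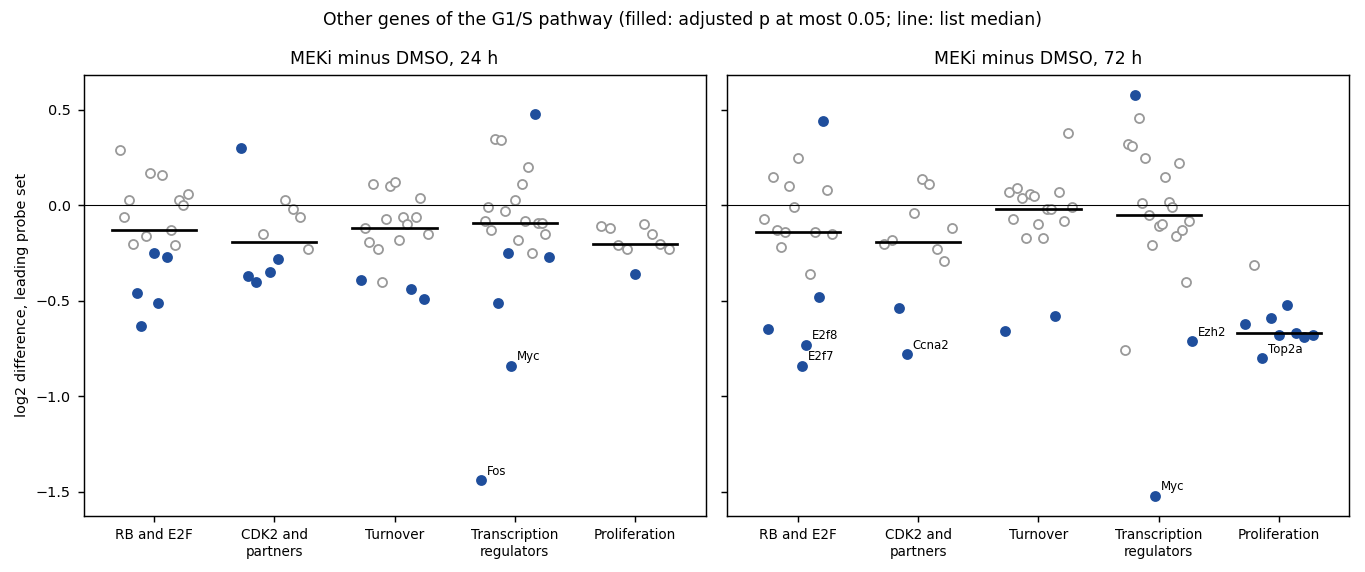
Log2 difference between MEKi and DMSO (y axis) of the leading probe set of each gene in 5 lists (x axis) at 24 h and at 72 h, filled where the test was passed, with a line at each list's median. Fos and Myc lie lowest at 24 h and Myc at 72 h, where 8 of 9 proliferation genes are filled and below 0.

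The genes whose pattern over the 12 arrays was most like that of a member were taken from 10852 leading probe sets at or above the median mean, by Pearson correlation, as a description. For Ccnd1 they were Polr1d (r = 0.994), Hmga2 (0.993) and Mcrip2 (0.989). For Cdk6 they were Ctps (0.992), Cct2 (0.984) and Nip7 (0.984), and for Ccnd3 Kmt5a (0.972), Stk10 (0.956) and Ehd4 (0.952). The 12 points share 4 groups and 2 harvest times.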

How the data were processed

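Each of 12 samples of B16-OVA RNA (200 ng) was hybridised to its own Affymetrix Mouse Genome 430 2.0 array. The deposited values are log2 signals that the authors normalized by RMA, a method that subtracts background, equalizes the distributions and combines the probes of a probe set. Versions of their software are not given in the sources used here. Groups came from sample titles. Of 45101 probe sets 64 controls were left out. Of the rest, 34945 have a gene of their own in the annotation, 932 name several and 9160 have no gene.

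Each pair of groups was fitted on its own 6 arrays, and the difference of MEKi effects on all 12, with limma 3.58.1 in R 4.3.3 (empirical Bayes, two-sided, Benjamini-Hochberg over 45037 probe sets, threshold 0.05). The ± in differences is the moderated SE. The workflow was tested on simulated data. All member probe sets are described, and for each other list up to 4 called genes with the largest change are named (Rb1 was added). The 3 genes most alike are given for each member whose leading probe set was called under MEKi. Members and lists were chosen with earlier results of these data known. Alternatives were the replicate number as a block, all 12 arrays in 1 fit, arrays centred on their median, brighter probe sets, a trended and robust prior, a gene's mean over its probe sets, and leaving out each array.

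Replicate numbers were checked as pairs by correlating deviations from group means over all probe sets. Within 72 h same-numbered DMSO and MEKi arrays correlated at 0.130 to 0.189 and others at -0.127 to -0.030. Within 24 h the values were 0.073 to 0.151 and -0.156 to 0.032.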

Additional observations from a re-analysis of the deposited data

Results flagged for a closer look

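The MEKi difference was not the same at both times for 3 member probe sets, by the test of that difference on all 12 arrays. It was higher at 72 h than at 24 h by 0.69 for Ccnd3 (1415907_at), by 0.80 for Cdk6 (1435338_at) and by 0.96 for Cdk6 (1455287_at). With 3 arrays a group, no search for outlying arrays within a group was made.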

How the results depend on the processing

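No called difference changed its sign under any alternative run. Of 649 values of single probe sets or genes under another setting, 6 lost and 25 gained a call, as did 46 and 6 of 936 values with an array left out, where fewer arrays were fitted. Member probe sets called at 24 h were 7, all lower, but 8 (2 higher and 6 lower) among brighter probe sets and 9 (2 higher and 7 lower) with a trended and robust prior, and 4 to 7 with an array left out. At 72 h they were 2, but 4 with all 12 arrays, centred arrays, brighter probe sets or a trended and robust prior, and 0 to 4 with an array left out. For the difference of the MEKi effects they were 3, but 5 with brighter probe sets or a trended and robust prior, and 2 to 4 with an array left out. Over time in DMSO they were 12, 10 to 13 under the other settings and 9 to 11 with an array left out, and in MEKi 9, 9 to 10 and 7 to 8. With the replicate number as a block, the counts were 7, 2, 11, 9 and 3 for MEKi at 24 h and at 72 h, time in DMSO, time in MEKi and the difference. The block ended 1 call, of Ccnd2 (1416123_at) over time in DMSO (adjusted p = 0.0511 in limma). There same-numbered arrays correlated at 0.006 to 0.034 and others at -0.022 to 0.003, and whether equal numbers mark pairs is not settled. Over all probe sets, 3801 were called at 24 h, but 6403 among brighter probe sets, 6623 with the trended prior and 1133 to 5091 with an array left out. At 72 h 3260 were called, but 5373 with all 12 arrays and 1383 to 2716 with an array left out. For the difference 1358 were called, but 2301 among brighter probe sets, 2106 with the trended prior and 668 to 1798 with an array left out. The cause of these changes was not tested. Centring the arrays moved differences by at most 0.073. Signal over background limits Cdkn2b and the dim probe sets of Ccnd3 and Cdk6, and 3 arrays a group limit all tests.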
